A study of Caenorhabditis elegans with 46 samples.

Results

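Among the regions that DRM subunits occupied in *lin-35* null late embryos of *C. elegans*, 299 of 1610 had peaks of MuvB and no peak of E2F-DP. These 299 are called MuvB-only regions here. They were selected on the *lin-35* null peak lists themselves: the 6 lists were merged wherever peaks overlapped by at least 1 bp, and a merged region was kept when it held 3 or 4 of the MuvB subunits LIN-9, LIN-52, LIN-54, and LIN-37 and no peak of the E2F-DP subunits DPL-1 and EFL-1. They made up 18.6% of all merged regions and 27.0% of the 1109 regions with at least 3 MuvB subunits, a share that ran from 14.8 to 40.0% over 8 alternative settings. Another 657 regions held at least 3 MuvB subunits together with both E2F-DP subunits and are called E2F-DP/MuvB regions. A further 153 held at least 3 MuvB subunits and 1 E2F-DP subunit, which was DPL-1 in 145 of them, and the remaining 501 held fewer than 3 MuvB subunits.

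In the DRM complex, the E2F-DP heterodimer of EFL-1 and DPL-1 and the MuvB core are bridged by LIN-35, the only pocket protein of the worm and the counterpart of the mammalian p107, p130, and Rb proteins. DRM represses transcription, and it can contact DNA through E2F-DP and through MuvB: E2F-DP recognises E2F-type elements, to which the cell cycle-dependent element (CDE) belongs, and LIN-54 recognises the cell cycle genes homology region (CHR). LIN-9, LIN-37, and LIN-52 are not known to bind specific sequences. LIN-52 is the MuvB subunit that contacts the pocket protein.

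The series mapped the subunits by ChIP-seq, in which crosslinked chromatin is precipitated with an antibody and its DNA is sequenced. The *lin-35(n745)* embryos, which lack LIN-35 protein in every cell, came from 96 h liquid cultures and the N2 wild-type embryos from 72 h cultures, and both were aged for up to 3.5 h before freezing. All 18 *lin-35* null libraries used here and 6 of the 18 wild-type libraries were made with the newer of the series' library protocols, so that genotype cannot be told apart from protocol and culture time. Each of the 13 lists combines the libraries of a subunit and genotype, gives neither counts of reads nor values per replicate, and was cut off at a 1% irreproducible discovery rate. The depth behind a peak is unknown, no replicate error can be given, and absence of a peak means only that none passed the cutoff. The paper describes a *lin-35* null replicate whose signal appeared abnormally high beside the others, and the lists used here include it. Intervals below are exact 95% binomial intervals that treat regions as independent draws and cover counting error only.

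The lists differ in length and peak width. In *lin-35* null the EFL-1 list was the shortest with 783 peaks, followed by LIN-37 with 927, DPL-1 with 995, LIN-54 with 1225, LIN-52 with 1388, and LIN-9 with 1674. When every list was shortened to its 783 highest peaks, 106 regions met the rule in place of 299. Of the 299 MuvB-only regions, 80 were still in the class, and 26 of the 106 lay at none of the 299.

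Peak height in *lin-35* null chose the regions only through presence or absence, yet the MuvB peaks of MuvB-only regions ranked low in their lists. Height is given as the percentile of a peak's signal value in its own list, where 100 is the highest peak, and is described without a test. The median percentile of LIN-9 was 43.8 in MuvB-only regions and 79.0 in E2F-DP/MuvB regions. LIN-52 had medians of 32.3 in MuvB-only and 74.6 in E2F-DP/MuvB regions. LIN-54, the DNA-binding subunit of MuvB, had medians of 26.1 in MuvB-only and 71.6 in E2F-DP/MuvB regions. Each MuvB subunit thus ranked lower in MuvB-only regions, although the classes overlapped. The interquartile ranges of MuvB-only regions, 31.9 to 57.0 for LIN-9, 20.5 to 49.8 for LIN-52, and 12.9 to 44.9 for LIN-54, lay below those of E2F-DP/MuvB regions, which began at 64.5 for LIN-9, 56.8 for LIN-52, and 51.4 for LIN-54.

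**Figure D1:**
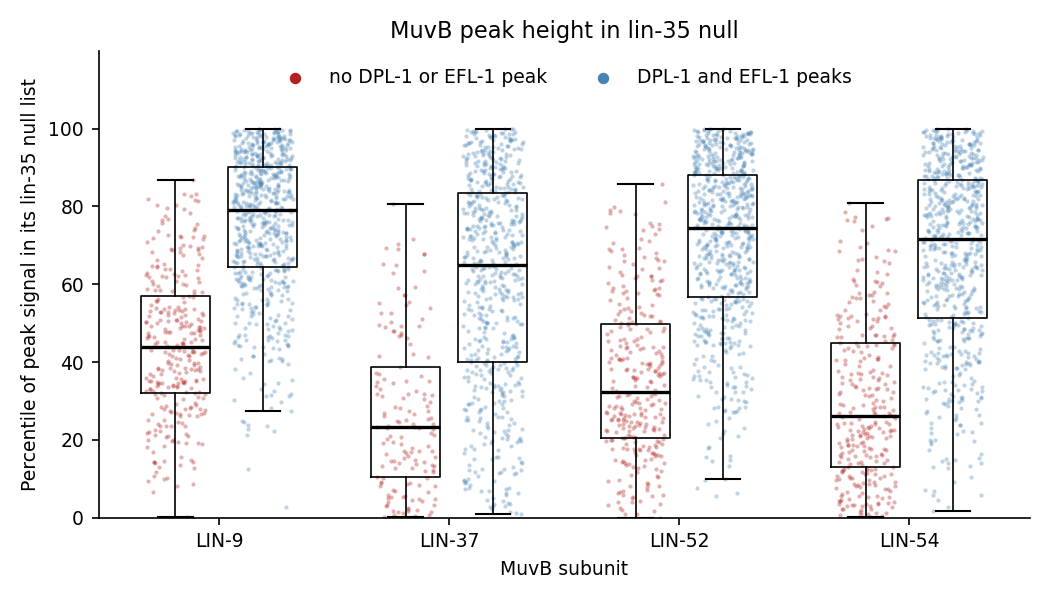
Percentile of the peak signal of each MuvB subunit in its *lin-35* null list (y axis), for regions without DPL-1 and EFL-1 peaks (red, left of each pair) and regions with both (blue). Points are regions, boxes span the quartiles with the median as a thick line, and whiskers reach the last point within 1.5 box lengths. LIN-9 has the highest median in the red class, 43.8, and LIN-37 the lowest, 23.3.

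LIN-37 had a peak in fewer MuvB-only regions than each other MuvB subunit. Its share was also lower than in the other classes with at least 3 MuvB subunits. It had a peak in 149 of the 299 MuvB-only regions (49.8%, interval 44.0 to 55.6%) and in 609 of the 657 E2F-DP/MuvB regions (92.7%, 90.4 to 94.6%), whereas LIN-9, LIN-52, and LIN-54 were each found in 296 to 298 MuvB-only regions. LIN-37 was found in 862 of all 1610 *lin-35* null regions (53.5%) and in 67.3% of the regions with 1 E2F-DP subunit. The combination of LIN-9, LIN-52, and LIN-54 without LIN-37 accounted for 150 MuvB-only regions, all 4 subunits for 144, and any other combination for 5. Regions lacking LIN-37 also had lower peaks of the other subunits. Their median percentiles were 33.5 for LIN-9, 22.9 for LIN-52, and 16.0 for LIN-54, against 57.8 for LIN-9, 49.9 for LIN-52, and 44.7 for LIN-54 where all 4 were present. The LIN-37 list was among the shorter ones. Of the 106 regions that met the rule with every list shortened to 783 peaks, 99 had a LIN-37 peak (93.4%).

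The share of MuvB regions without E2F-DP was lower where MuvB ranked higher. All 1109 regions with at least 3 MuvB subunits were put into 4 rank groups of equal size by the mean percentile of their MuvB peaks. MuvB-only regions were 59.7% of the lowest group (166 of 278, interval 53.7 to 65.5%), 33.9% of the second (28.4 to 39.8%), 13.0% of the third (9.27 to 17.5%), and 1.08% of the highest (3 of 277, 0.224 to 3.13%). Class and rank were taken from the same lists, so that these shares are a description. Regions with 1 E2F-DP subunit made up 20.5%, 21.3%, 11.6%, and 1.81% of these groups.

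**Figure D2:**
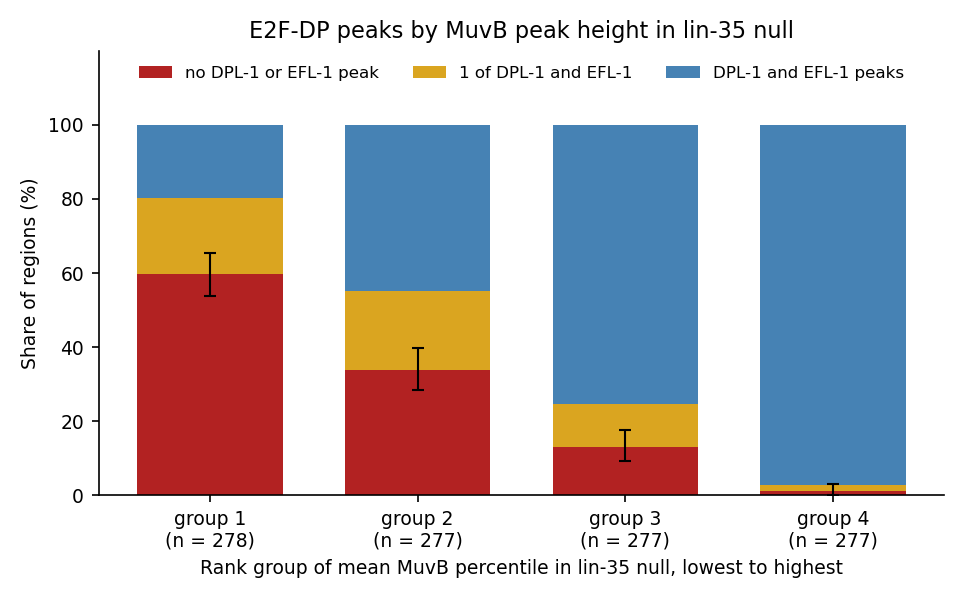
Share of regions (y axis, %) with no E2F-DP peak (red), with 1 E2F-DP subunit (yellow), and with DPL-1 and EFL-1 (blue) in 4 rank groups of mean MuvB percentile in *lin-35* null, lowest on the left. Error bars are exact 95% binomial intervals of the red share, which is 59.7% in group 1 and 1.08% in group 4.

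Regions just inside and just outside the rule had overlapping values. MuvB-only regions with 3 MuvB subunits had a median mean percentile of 22.7, and the 128 regions without E2F-DP that missed the rule with 2 MuvB subunits had a median of 16.4. Where DPL-1 alone remained beside MuvB, its median percentile in its own list was 18.8, and where EFL-1 alone remained, in 8 regions, it was 10.3. The nearest *lin-35* null E2F-DP peak lay a median of 29302 bp from a MuvB-only region, and 5 regions had one within 500 bp. The closest of these, at 118, 254, 348, 375, and 392 bp, included the *gei-4* promoter at 254 bp and the bidirectional promoter of *ubc-12* and *R09B3.3* at 348 bp.

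The MuvB peaks of a MuvB-only region lay close together. Summits of the MuvB subunits within a region lay a median of 24 bp apart at the most distant pair, against 19 bp in E2F-DP/MuvB regions. These medians rest on unlike numbers of summits, since 48.2% of MuvB-only and 92.2% of E2F-DP/MuvB regions held all 4 MuvB subunits. Their widths ran from 617 to 1132 bp with a median of 633 bp, close to the 630 bp width of a LIN-9 peak. They were found on every chromosome, with 78 on I, 51 on II, 69 on III, 55 on IV, 43 on V, and 3 on X. The X share was 1.00% (interval 0.207 to 2.90%), against 1.67% (0.839 to 2.98%) of E2F-DP/MuvB regions and 3.73% of all *lin-35* null regions.

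The wild-type lists were not used by the rule and show what occupied the same DNA when LIN-35 was present. Of the 299 MuvB-only regions, 152 (50.8%, interval 45.0 to 56.6%) overlapped wild-type peaks of both DPL-1 and EFL-1, against 630 of 657 E2F-DP/MuvB regions (95.9%, 94.1 to 97.3%) and 68.9% of all *lin-35* null regions. Wild-type peaks of all 7 subunits were found at 122 MuvB-only regions (40.8%, 35.2 to 46.6%), against 601 E2F-DP/MuvB regions (91.5%, 89.1 to 93.5%) and 60.5% of all regions. The order was the same among regions of like MuvB height in *lin-35* null. In the lowest rank group both wild-type E2F-DP peaks were present at 46.4% of MuvB-only regions (38.6 to 54.3%) and 90.9% of E2F-DP/MuvB regions (80.0 to 97.0%). In the third group they were present at 72.2% of MuvB-only regions (54.8 to 85.8%) and 96.2% of E2F-DP/MuvB regions (92.6 to 98.3%).

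Each subunit was found less often at MuvB-only than at E2F-DP/MuvB regions. DPL-1 had a wild-type peak at 60.5% of MuvB-only regions and 96.3% of E2F-DP/MuvB regions, and EFL-1 at 65.6% of MuvB-only and 98.3% of E2F-DP/MuvB regions. Over all *lin-35* null regions the shares were 74.2% for DPL-1 and 77.6% for EFL-1. LIN-35 was present in wild type at 73.2% of MuvB-only regions (67.8 to 78.2%), against 95.3% of E2F-DP/MuvB regions and 79.1% of all regions. Of the MuvB subunits, LIN-52 was found most often at MuvB-only regions, at 78.9% (73.9 to 83.4%), and LIN-37 least often, at 56.9% (51.0 to 62.5%), against 99.1% for LIN-52 and 97.6% for LIN-37 in E2F-DP/MuvB regions. Over all *lin-35* null regions LIN-52 was also found most often, at 80.7%, and LIN-37 least often, at 71.7%, so that this order was not particular to MuvB-only regions. Wild-type peaks at MuvB-only regions also ranked lower, with median percentiles between 30.2 for DPL-1 and 42.5 for LIN-35, against 78.8 for DPL-1 and 83.8 for LIN-35 in E2F-DP/MuvB regions.

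**Figure D3:**
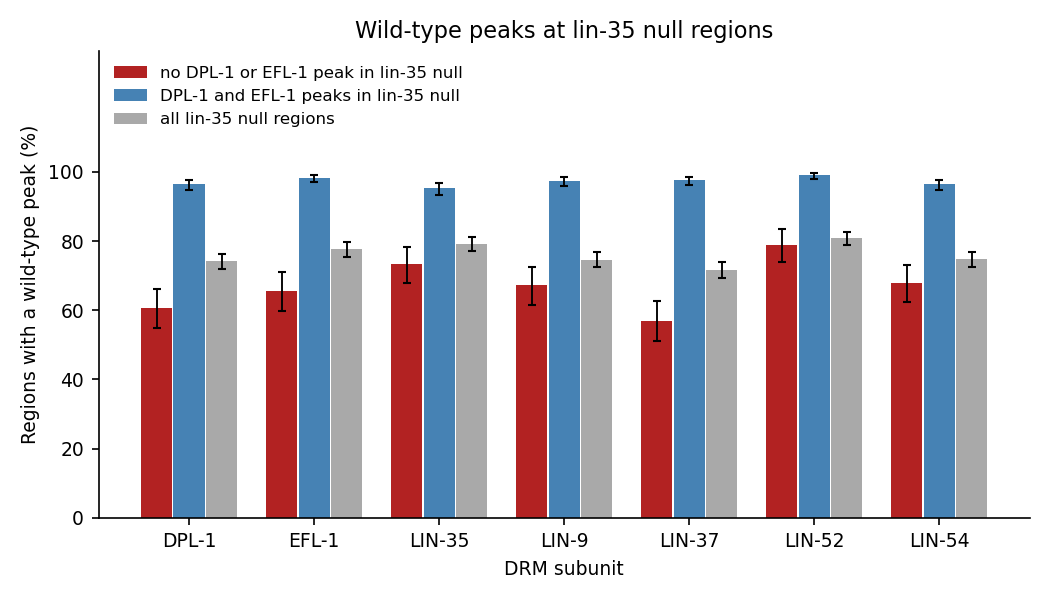
Share of *lin-35* null regions (y axis, %) that overlap a wild-type peak of each DRM subunit, for MuvB-only regions (red), E2F-DP/MuvB regions (blue), and all *lin-35* null regions (grey). Error bars are exact 95% binomial intervals. The red bars lie between 56.9% for LIN-37 and 78.9% for LIN-52, below the blue bars of every subunit.

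MuvB-only regions had several wild-type states. Besides the 152 with both E2F-DP subunits, 148 of which also had LIN-35, another 73 (24.4%) had 1 E2F-DP subunit in wild type, EFL-1 in 44 and DPL-1 in 29. The remaining 74 regions had no wild-type E2F-DP peak. At 8 of these at least 3 MuvB subunits were present in wild type, at 40 fewer subunits, and at 26 (8.70%, interval 5.76 to 12.5%) no DRM subunit at all. A lack of any wild-type peak was found at 2 of 657 E2F-DP/MuvB regions (0.304%). It was also found at 6 of 153 regions with 1 E2F-DP subunit (3.92%, 1.45 to 8.34%), an interval that overlapped that of MuvB-only regions. The share over all *lin-35* null regions was 9.19%. That share includes the 501 regions with fewer than 3 MuvB subunits, which could not meet the rule and lacked any wild-type peak at 114 (22.8%). *lin-35* null peaks were wider than wild-type peaks of the same subunit, and wild-type lists were longer.

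The regions without a wild-type peak were not all low in rank. The highest of the 26, chrV:16746347-16747175 (ce10, as all coordinates here), had percentiles of 75.8 for LIN-9, 68.9 for LIN-52, 70.5 for LIN-54, and 59.0 for LIN-37 in *lin-35* null. It lay 207891 bp from the nearest *lin-35* null E2F-DP peak. The next, chrV:5119242-5120071, had a mean MuvB percentile of 47.2, and the tenth in order had 34.4. Their median of 29.7 was near the median of 33.6 of the MuvB-only regions with both wild-type E2F-DP subunits. No gene was assigned to these regions, since the study's gene assignments cover its wild-type DRM sites only.

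MuvB peaks without E2F-DP in wild type were low in rank. Of the 43 MuvB-only regions with a wild-type MuvB peak and no wild-type E2F-DP peak, 17 had 1 MuvB subunit in wild type, 18 had 2, 5 had 3, and 3 had all 4. The mean wild-type percentile of the MuvB subunits present had a median of 10.8 and ran from 0.52 to 33.2. The highest of the 43 in *lin-35* null was chrIII:3294189-3295002, with a mean MuvB percentile of 59.5 there. Its wild-type peaks were low, with LIN-37 at 22.0, LIN-35 at 15.7, and LIN-52 at 0.5. The region chrIII:10895630-10896281 had all 4 MuvB subunits in wild type, with percentiles of 8.7 for LIN-9, 35.9 for LIN-52, 27.5 for LIN-54, and 4.4 for LIN-37. Its *lin-35* null percentiles were 62.9 for LIN-9, 61.5 for LIN-52, 57.3 for LIN-54, and 16.8 for LIN-37, each higher in rank than in wild type.

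The highest MuvB-only region of all, chrII:12768227-12769057, was singled out after its values were seen. It lacked a wild-type LIN-35 peak and lay at no wild-type DRM site. Its *lin-35* null percentiles were 86.9 for LIN-9, 85.8 for LIN-52, 81.0 for LIN-54, and 80.7 for LIN-37. In wild type DPL-1 ranked at 10.6 and EFL-1 at 36.8, below the 41.6 to 53.3 of the MuvB subunits.

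At the 122 MuvB-only regions with wild-type peaks of all 7 subunits, MuvB height in wild type did not order MuvB height in *lin-35* null. Spearman's rho across these regions was 0.01 and Pearson's r was −0.00, against a rho of 0.58 and an r of 0.54 across 601 E2F-DP/MuvB regions. Regions are not independent replicates, the classes span different ranges, and these values are descriptions. Over the MuvB subunits present in *lin-35* null, the mean percentile of *lin-35* null was below that of wild type at 83 of the 122 and above it at 39, with a median difference of −16.2 percentile points and a range of −87.6 to 34.3. In E2F-DP/MuvB regions it was lower at 395 of 601 with a median difference of −5.83. Percentiles compare ranks in lists of unequal length, not amounts of bound protein.

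**Figure D4:**
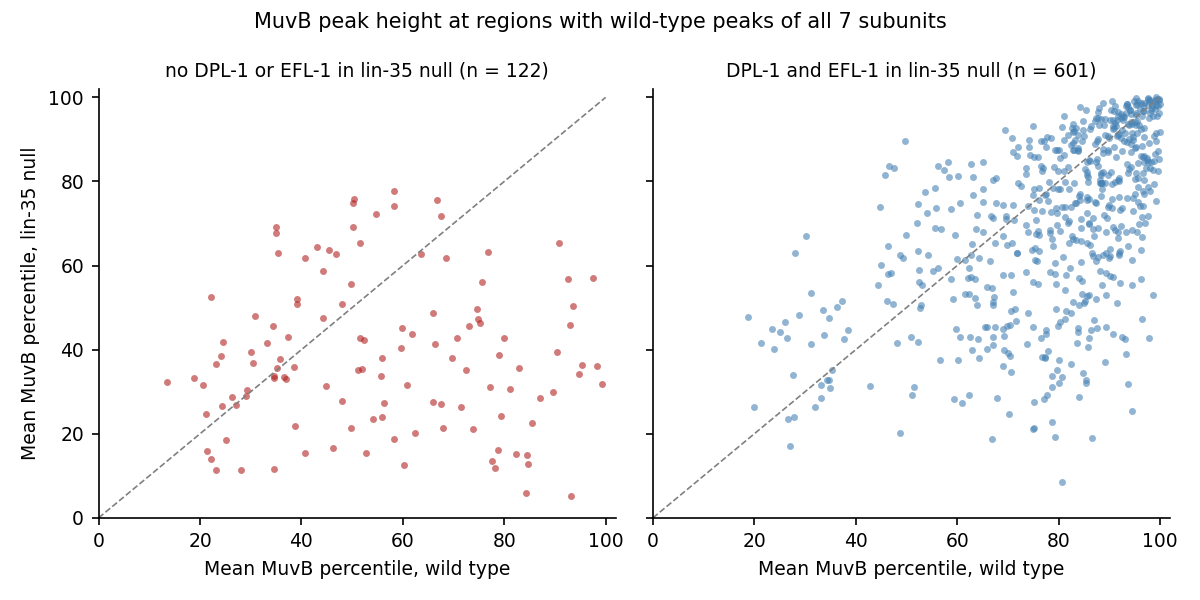
Mean percentile of the 4 MuvB subunits in wild type (x axis) and of the MuvB subunits present in *lin-35* null (y axis) at regions with wild-type peaks of all 7 subunits. Left, 122 MuvB-only regions. Right, 601 E2F-DP/MuvB regions. Points are regions and the dashed line marks equal percentiles. The left cloud shows no slope (rho 0.01) and the right cloud rises (rho 0.58).

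Promoters with some of the highest wild-type peaks were found in this class with low MuvB ranks. The region at the *rcq-5* promoter, chrIII:4057774-4058417, had percentiles between 89.9 and 94.8 for all 7 subunits in wild type. In *lin-35* null LIN-9 ranked at 8.1, LIN-52 at 1.1, and LIN-54 at 6.4, and LIN-37 had no peak. *rcq-5* encodes a RecQ family DNA helicase. The promoter of *C43H8.2* behaved alike, with 82.5 to 89.5 in wild type, while in *lin-35* null it had 12.7 for LIN-9, 1.0 for LIN-52, and 3.7 for LIN-54.

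Other high wild-type sites had higher MuvB ranks in *lin-35* null. At the *lem-3* promoter (chrI:9581278-9581908), whose product is a LEM domain nuclease, every wild-type subunit ranked at 98.8 or above. In *lin-35* null LIN-9 ranked at 54.1, LIN-54 at 46.8, LIN-52 at 25.1, and LIN-37 at 1.3. The bidirectional promoter of *Y32H12A.8* and *W03A5.2* ranked between 96.8 and 98.6 in wild-type embryos and between 48.0 and 62.4 in *lin-35* null. At the bidirectional promoter of *cct-6*, which encodes a chaperonin subunit, and *alh-9*, an aldehyde dehydrogenase gene, wild-type percentiles were 86.7 to 94.1 and *lin-35* null percentiles 46.6 to 68.4. The other regions with the highest wild-type E2F-DP peaks, at *stc-1*, *kin-19* (casein kinase 1 alpha), *tag-93*, *Y65A5A.2*, and the *R05D7.5* and *R05D7.4* pair, had mean MuvB percentiles between 34.2 and 46.0 in *lin-35* null.

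The 10 MuvB-only regions highest in *lin-35* null among those at DRM sites had wild-type peaks of all 7 subunits. At the *F09D1.1* promoter (chrII:2564823-2565675), MuvB percentiles were 71.5 to 83.2 in *lin-35* null and 51.5 to 64.1 in wild type. The bidirectional promoter of *cdc-14*, a phosphatase that reverses cyclin-dependent kinase phosphorylation, and *C17G10.2* (chrII:5594046-5594877) had 67.7 to 82.8 in *lin-35* null and 44.1 to 58.9 in wild type, where DPL-1 ranked at 13.7. At the promoter of *spr-2*, a SET/NAP family chaperone gene, MuvB percentiles were 69.4 to 81.8 in *lin-35* null and 63.7 to 72.7 in wild type, beside 58.9 for DPL-1. The *nduf-7* promoter, of a mitochondrial complex I subunit gene, ranked low for E2F-DP in wild type, at 16.7 for DPL-1 and 14.4 for EFL-1, and its MuvB percentiles were 57.3 to 78.3 in *lin-35* null. The others were at *Y48C3A.20*, *npp-17*, the *npp-16* and *Y56A3A.19* pair, *Y47H9C.12*, the *gfl-1* and *M04B2.4* pair, and *Y51A2D.7*. These 10 regions met the rule under all 8 alternative settings, whereas *rcq-5* and *C43H8.2* met it under 5.

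Wild-type DRM sites, which need E2F-DP, LIN-35, and MuvB together, coincided with 138 MuvB-only regions (46.2%, interval 40.4 to 51.99%). This compares with 608 E2F-DP/MuvB regions (92.5%, 90.3 to 94.4%) and 63.8% of all *lin-35* null regions. The study marked each DRM site for the CDE, the CHR, a motif found de novo in its sites, and overlap with a high occupancy target (HOT) region of embryos, where many factors bind. Its CDE and CHR marks cover phylogenetically conserved motifs only, so that a site without the mark can still hold the element. Marks were counted over the 139 sites at MuvB-only regions and the 616 at E2F-DP/MuvB regions, since a region can span more than 1 site.

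A conserved CHR, the element bound by LIN-54, was more frequent at the DRM sites of MuvB-only regions than at those of E2F-DP/MuvB regions. The 161 MuvB-only regions at no DRM site have no marks. It was marked at 113 of 139 sites (81.3%, interval 73.8 to 87.4%), against 419 of 616 sites at E2F-DP/MuvB regions (68.0%, 64.2 to 71.7%) and 63.3% of all 1418 DRM sites. In the lowest rank group of *lin-35* null MuvB height the CHR was marked at 82.1% of MuvB-only sites (70.8 to 90.4%) and 51.2% of E2F-DP/MuvB sites (35.1 to 67.1%). In the second group the shares were 82.6% of MuvB-only sites (68.6 to 92.2%) and 59.8% of E2F-DP/MuvB sites (49.9 to 69.2%), and in the third 76.0% of MuvB-only sites and 70.4% of E2F-DP/MuvB sites, with overlapping intervals. A CHR mark without a CDE mark was found at 33.1% of MuvB-only sites (25.4 to 41.6%), 20.0% of E2F-DP/MuvB sites (16.9 to 23.3%), and 23.2% of all DRM sites. With every list shortened to 783 peaks, the difference in CHR share was 1.76 percentage points in place of 13.3, and over 8 alternative settings and 1 added after seeing the data it ran from 1.76 to 23.6 points.

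The CDE, an E2F-type element, had overlapping intervals in the classes. It was marked at 71 of 139 MuvB-only sites (51.1%, interval 42.5 to 59.6%), against 56.2% of E2F-DP/MuvB sites (52.1 to 60.1%) and 46.5% of all DRM sites. CDE and CHR were marked together at 48.2% of MuvB-only sites, 48.1% of E2F-DP/MuvB sites, and 40.1% of all DRM sites. The CDE mark without a CHR mark was found at 4 MuvB-only sites (2.88%, 0.790 to 7.20%), 8.12% of E2F-DP/MuvB sites (6.08 to 10.6%), and 6.42% of all DRM sites.

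**Figure D5:**
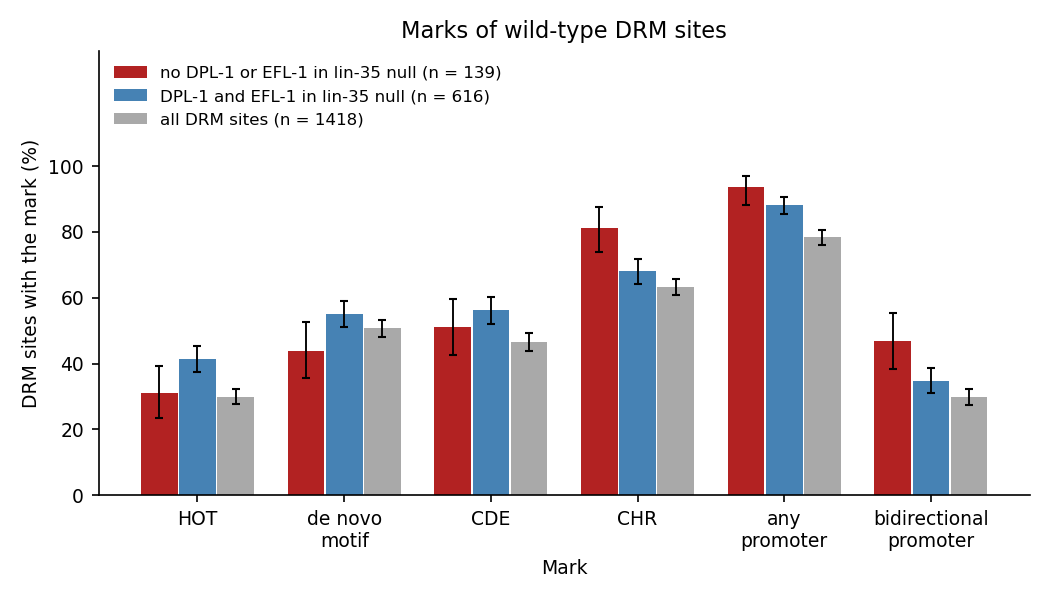
Share of wild-type DRM sites (y axis, %) with each mark of the study, at MuvB-only regions (red, 139 sites), E2F-DP/MuvB regions (blue, 616 sites), and over all 1418 DRM sites (grey). Error bars are exact 95% binomial intervals. The CHR is marked at 81.3% of red and 68.0% of blue sites, and bidirectional promoters make up 46.8% of red and 34.7% of blue sites.

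The de novo motif was more frequent where MuvB ranked higher in wild type. The study found this motif in the same wild-type DRM sites, so that its relation to wild-type height is a description. It was marked at 61 MuvB-only sites (43.9%, interval 35.5 to 52.5%), against 55.0% of E2F-DP/MuvB sites (51.0 to 59.0%) and 50.7% of all DRM sites. Among the MuvB-only regions with all 7 subunits in wild type, sorted into 4 groups by wild-type MuvB percentile, it was marked at 26.7%, 26.7%, 48.4%, and 87.1% of sites from the lowest to the highest group. Each group held 30 or 31 sites, with intervals of 12.3 to 45.9% in the lowest and 70.2 to 96.4% in the highest. E2F-DP/MuvB regions of the same wild-type heights had 7.69%, 11.1%, 33.6%, and 69.6% of 26, 36, 125, and 418 sites. The lower share over all MuvB-only sites turned into a higher one, by 8.23 percentage points, when taken within rank groups of *lin-35* null MuvB height. The direction was not the same in each group. The MuvB-only share was 38.8% against 22.0% of E2F-DP/MuvB sites in the lowest group and 52.2% against 44.9% in the second. In the third it was lower, 44.0% against 54.3%, and the highest held 1 MuvB-only site, without the motif. The intervals of the classes overlapped in each group.

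HOT overlap at MuvB-only regions was near that of all DRM sites and lower than at E2F-DP/MuvB regions. It was marked at 43 of 139 sites (30.9%, interval 23.4 to 39.3%), against 41.4% of E2F-DP/MuvB sites (37.5 to 45.4%) and 30.0% of all DRM sites. The intervals overlapped. The difference of −10.5 percentage points became 4.20 when the lowest 25% of each *lin-35* null list was left out. Of the HOT sites at MuvB-only regions, 42 of 43 carried a CHR mark (97.7%, 87.7 to 99.9%), against 190 of 255 at E2F-DP/MuvB regions (74.5%, 68.7 to 79.7%), and outside HOT regions 74.0% of MuvB-only sites (64.0 to 82.4%) and 63.4% of E2F-DP/MuvB sites (58.2 to 68.4%) did. Over all DRM sites the CHR was marked at 74.4% of HOT sites and 58.6% of the others.

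Promoters held nearly all MuvB-only DRM sites. Any promoter was assigned to 130 of 139 sites (93.5%, interval 88.1 to 97.0%), against 88.3% of E2F-DP/MuvB sites (85.5 to 90.7%) and 78.3% of all DRM sites. Bidirectional promoters, which lie between divergent genes, accounted for 65 MuvB-only sites (46.8%, 38.3 to 55.4%), against 214 E2F-DP/MuvB sites (34.7%, 31.0 to 38.6%) and 29.8% of all DRM sites. These intervals overlapped slightly. The difference of 12.0 percentage points ran from 11.1 to 19.9 points over the same 9 alternatives. At bidirectional promoters the CHR was marked at 90.8% of MuvB-only sites (81.0 to 96.5%) and 74.8% of E2F-DP/MuvB sites (68.4 to 80.4%). At single-gene promoters the shares were 76.9% of MuvB-only sites (64.8 to 86.5%) and 69.4% of E2F-DP/MuvB sites (64.1 to 74.3%), with overlapping intervals. Introns held 5 MuvB-only sites, termination sites 2, and intergenic DNA 2.

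The 139 sites were assigned to 203 genes, 11.5% of the 1761 genes with a DRM site, and 811 genes (46.1%) had a site in an E2F-DP/MuvB region. Genes were grouped into lists of known roles, and each list given here is described by its counts alone. Of the nuclear pore, transport, and envelope genes, 8 of 30 were at a MuvB-only region (26.7%, interval 12.3 to 45.9%) and 11 had a site in an E2F-DP/MuvB region (36.7%). They were the nucleoporin genes *npp-1*, *npp-15*, *npp-16*, and *npp-17*, the importin genes *ima-3* and *imb-2*, *ran-3*, the gene of the Ran exchange factor RCC1, and the nuclease gene *lem-3*. At the *npp-17* promoter (chrI:10025779-10026408), MuvB percentiles in *lin-35* null were 62.9 to 81.4, against 53.9 to 63.3 in wild type. At *npp-15* they were 8.3 to 60.0 in *lin-35* null, against 63.8 to 69.7 in wild type, and at *ima-3* LIN-37 was absent and LIN-54 ranked at 4.7 in *lin-35* null.

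Of the chromatin regulators, 9 of 43 genes were at a MuvB-only region (20.9%, interval 10.0 to 36.0%). These were *spr-2*, *snfc-5* (a SWI/SNF subunit), *athp-1*, *swd-2.2*, *sin-3* (a corepressor scaffold), *set-17*, *mes-4* (a histone H3 lysine methyltransferase of the germline), *prmt-1* (a protein arginine methyltransferase), and *xnp-1* (the ATRX homologue). At *mes-4* the MuvB percentiles were 8.8 to 32.3 in *lin-35* null with no LIN-37 peak, against 65.6 to 69.9 in wild type. At *xnp-1* LIN-9 ranked at 44.7 and LIN-54 at 0.2 in *lin-35* null, so that the MuvB subunits of a region could differ widely in rank. Proteasome genes had 4 of 14 (28.6%, 8.39 to 58.1%), namely *pas-4*, *pbs-1*, *rpn-1*, and *rpt-3*.

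Of the cell cycle and chromosome segregation genes, 4 of 74 were at a MuvB-only region (5.41%, interval 1.49 to 13.3%), an interval that includes the 11.5% of all genes, and 51 had a site in an E2F-DP/MuvB region (68.9%). The 4 were *cdc-14*, *hcp-4* (CENP-C), *scc-3* (cohesin), and *zyg-1* (the centriole duplication kinase). *hcp-4* ranked between 75.9 and 82.2 for all subunits in wild type, while LIN-9 ranked at 32.1, LIN-52 at 20.4, and LIN-54 at 20.4 in *lin-35* null. DNA replication, repair, and meiosis genes had 3 of 59 (5.08%, 1.06 to 14.1%), *cdc-6*, *fncm-1*, and *rcq-5*. Ribosome and translation genes had 3 of 45 (6.67%, 1.40 to 18.3%), *eif-3.J*, *rpl-26*, and *rps-29*.

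Germline and small RNA pathway genes had 1 of 29, *mut-7*. Of the DRM subunit genes with a site, 0 of 6 were at a MuvB-only region (interval 0 to 45.9%) and 5 were at an E2F-DP/MuvB region. The interval included the 11.5% of all genes for every list given here except nuclear pore, transport, and envelope, for which it began just above, at 12.3%. That list counts the nuclease gene *lem-3*, and its interval was not computed without this gene. The lists were chosen with earlier results of these data known, and the intervals make no allowance for the number of lists. Genes of a bidirectional promoter share a site, and no list was tested.

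The 80 MuvB-only regions that met the rule under all 8 alternative settings were those left by the shortened lists, a setting that removes low peaks, and they ranked higher by construction, with a mean MuvB percentile of at least 35.9 and a median of 52.6, against a median of 24.8 in the other 219. Wild-type peaks of DPL-1 and EFL-1 were present at 49 of the 80 (61.3%, interval 49.7 to 71.9%) and at 103 of the 219 (47.0%, 40.3 to 53.9%). No wild-type peak of any subunit was found at 5 of the 80. A DRM site lay at 46 of them, and of these sites 36 carried a CHR (78.3%, 63.6 to 89.1%), 24 a CDE (52.2%, 36.9 to 67.1%), and 21 the de novo motif (45.7%, 30.9 to 61.0%). Bidirectional promoters held 23 of the 46 sites (50.0%, 34.9 to 65.1%). The 93 sites of the other MuvB-only regions had a CHR at 82.8% (73.6 to 89.8%) and a bidirectional promoter at 45.2% (34.8 to 55.8%), so that the intervals of both marks overlapped between these subsets.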

How the data were processed

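The authors aligned reads to ce10 with Bowtie 1.1.2, called peaks with SPP against input, and combined replicates by irreproducible discovery rate at 1%. The deposited peak lists give a signal value per peak on a scale not given in the sources used here, 1 list per subunit and genotype. deepTools 2.0 is also named in the submitters' processing notes. The wild-type LIN-37 list rests on 1 library of the series and earlier ones. Samples were grouped by their labels, and each list was treated as the pooled value of its group.

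Signals were turned into percentiles within each list. Peaks were merged transitively at an overlap of at least 1 bp, the highest peak of each subunit was taken per region, and regions were classed by the subunits present. Merging was checked on peaks of known class. HOT, motif, gene, and location annotation of DRM sites came from the study's supplementary tables, whose columns of differential binding, classes, and expression were not used. Of 203 gene IDs, 201 matched a current symbol, and the study's spelling was kept. Named regions were the 10 highest in *lin-35* null and the 10 with the highest wild-type E2F-DP percentiles among those at DRM sites, up to 10 without any wild-type peak and up to 10 with wild-type MuvB but no wild-type E2F-DP, and those assigned to a listed gene. The 5 nearest a *lin-35* null E2F-DP peak were chosen after their values were seen. A gene list is not reported here. Members, gene lists, and alternatives were chosen with earlier results of these data known. A planned motif search in genome sequence was not run, and no sequences are shown. Python 3.11.15, numpy 2.4.6, scipy 1.17.1, and matplotlib 3.10.9 were used. Lists hold no counts, so that no test between genotypes was made.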

Additional observations from a re-analysis of the deposited data

How the results depend on the processing

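No paired analysis was possible because each list pools its replicates and no value of a single replicate was used, and leaving out a replicate was not possible for the same reason. Joining by 50% overlap, 200 bp peaks, or joining peaks up to 500 bp apart gave 305, 309, and 292 MuvB-only regions in place of 299 and moved no other value followed beyond its 95% interval. With lists shortened to the shortest, MuvB-only regions numbered 106, their median mean MuvB percentile was 55.9, wild-type DPL-1 and EFL-1 were present at 66.0%, and all 7 subunits at 59.4%. With all 4 MuvB subunits required these values were 144, 42.6, 58.3%, and 52.8%. Without the lowest 25% of each *lin-35* null list, the median was 48.1 and the wild-type shares 69.2% and 58.8%, and the difference from E2F-DP/MuvB sites turned to 4.20 percentage points for HOT and 0.477 for the CDE. With EFL-1 absent and DPL-1 not considered, MuvB-only regions numbered 444, or 40.0% of MuvB regions, the median was 33.8 and the wild-type shares 61.9% and 48.2%, and the HOT difference was −1.40 points. Within rank groups of *lin-35* null MuvB height, an alternative chosen after seeing the data, the differences turned to 1.44 points for the CDE and 8.23 for the de novo motif. Percentiles rise by construction when low peaks are left out. For the other moves the cause was not tested. The lists give no depth, so that a region without a peak cannot be told apart from one below the cutoff.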

Other observations

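The 153 regions that kept 1 E2F-DP subunit beside MuvB, mostly DPL-1, differed from MuvB-only regions in their wild-type peaks. Both E2F-DP subunits had wild-type peaks at 83.7% of them (interval 76.8 to 89.1%), against 50.8% of MuvB-only regions and 95.9% of E2F-DP/MuvB regions. Their DRM sites lay at bidirectional promoters in 56.3% (46.6 to 65.6%) and in HOT regions in 53.6% (43.9 to 63.0%), against 46.8% of MuvB-only sites at bidirectional promoters and 30.9% in HOT regions. The CHR was marked at 71.4% of their sites (62.1 to 79.6%).

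Wild-type E2F-DP summits lay close to the MuvB summits that remained in *lin-35* null. At MuvB-only regions with a wild-type DPL-1 peak, its summit was a median of 15.7 bp from the mean MuvB summit, and that of EFL-1 16.3 bp. At E2F-DP/MuvB regions the medians were 9.75 bp for DPL-1 and 9 bp for EFL-1. Distances over 200 bp were found at 2 of 181 MuvB-only regions for DPL-1 and 4 of 196 for EFL-1.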
